A study of Mus musculus with 34 samples.

Results

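The transcripts described here encode 10 feedback inhibitors of ERK signaling, chosen by name from 14107 measured genes. They comprised 5 dual-specificity MAP kinase phosphatases (Dusp1, Dusp4, Dusp5, Dusp6 and Dusp7), 3 Sprouty proteins (Spry1, Spry2 and Spry4) and 2 Spred proteins (Spred1 and Spred2). All 10 were present in the count table, so none was lost to a filter on low values. RNA was sequenced from 3 mouse lines (NaJa-D, NaJa-F, NaJa-G) after 1 or 5 days in 0.5 µM encorafenib, a BRAF inhibitor, or in its solvent DMSO. Medium with inhibitor or DMSO was renewed on days 2 and 4 of the longer treatment. The 12 groups of line, treatment and day held 34 libraries, with 3 in each of 10 groups and 2 in the other two, NaJa-G in DMSO and NaJa-F in encorafenib, both on day 5.

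The lines carried VillinCreERT2, BrafV600E/+, Trp53R172H and an Apc deletion on a C57BL/6N background, and the DMSO controls carried the same alleles. They were grown from the peritoneal lavage of 3 mice that had received colon organoids of 1 donor line as orthotopic transplants, after Cre, driven by the epithelial Villin promoter, had been activated with 4-hydroxytamoxifen. The remaining Trp53 wild-type allele had been lost. Each line is therefore 1 isolate from 1 recipient, and a difference between lines cannot be told apart from a difference between isolates. The replicates are not stated to be separate cultures, so the p-values measure only the spread between libraries, which may be technical. A library, by its title NaJa-D DMSO day 1 replicate 3, names NaJa-G as its line elsewhere in the labels. The title was followed, as the lowest correlation of its profile with a library of that group was 0.995 and the highest with a NaJa-G library 0.920.

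Library totals ranged from 46007000 to 80121300 counts. The epithelial markers Cdh1, encoding E-cadherin, and Krt8, encoding a simple-epithelium keratin, were at 494 and 623 CPM (counts scaled to the same TMM-adjusted library total) or more in every library, whereas the brush-border gene Vil1 reached no more than 1.10 CPM in NaJa-G. Epcam ranged from 730.4 to 1177 CPM in NaJa-D and from 65.1 to 149.6 CPM in NaJa-G. All 9 epithelial markers were measured, with sums between 2596 and 9101 CPM. The 5 mesenchymal markers summed to between 6727 and 15476 CPM, most of it Fn1. Fn1 ranged from 8589 to 14884 CPM in NaJa-D and from 4216 to 12814 CPM in NaJa-G. In DMSO on day 1 the sum was 13734 to 15090 CPM for NaJa-D and 6727 to 7833 CPM for NaJa-G. Vim, Zeb1, Cdh2 and Sparc were instead highest in NaJa-G, with Vim at 1834 to 2930 CPM. Of 5 fibroblast markers 3 were measured, and their sum was 1.16 to 4.46 CPM in NaJa-D and NaJa-F and 13.8 to 106.5 CPM in NaJa-G. Of 4 mesothelial markers 3 were measured, summing to between 496.9 and 3520 CPM, nearly all of it Msln. Of the leukocyte markers only Cd68 was measured, at 7.26 CPM or less, and of the endothelial markers only Kdr, at 1.36 CPM or less. The other listed markers were absent from the counts, which held only genes above 1 CPM in at least 2 libraries. Whether they were removed for low values is not known. The median SD of log2 CPM over genes was 0.0485 to 0.147 within a group, widest in NaJa-D encorafenib day 1. The part of these markers in the results was not tested. Several of these markers also differed between treatments, with values beside the encorafenib results. In bulk RNA, fewer cells of a type and less RNA per cell cannot be told apart.

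ERK is the last kinase of the RAS-RAF-MEK cascade, and mutant BRAF keeps that cascade active without an upstream signal. Active ERK raises transcription of its own inhibitors. DUSP phosphatases remove the activating phosphates from MAP kinases, Sprouty proteins dampen signaling between receptor tyrosine kinases and RAF, and Spred proteins bring the RAS-inactivating protein neurofibromin to the membrane. In cells with mutant BRAF, transcripts of this set are widely used as a readout of pathway output.

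The genes lie on 10 different chromosomes of GRCm38 (GENCODE M21). Dusp1 was annotated at chr17:26505590-26562128, Dusp4 at chr8:34807297-34819894, Dusp5 at chr19:53529109-53542431, Dusp6 at chr10:99263231-99267489 and Dusp7 at chr9:106368632-106375724. Spry1 was annotated at chr3:37639947-37644598, Spry2 at chr14:105891947-105896819, Spred1 at chr2:117121374-117182279 and Spred2 at chr11:19924375-20024026. Spry4 (ENSMUSG00000024427) completes the set. The Dusp1 gene model shares exon bases with Ergic1 on the opposite strand. Whether the counting used strand is not given in the sources used here, so reads of that overlap cannot be assigned with certainty. Dusp5 and Spry1 share exon bases with antisense genes that are not in the table. Ergic1 itself ranged from 329.4 to 737.8 CPM, and its log2 fold changes with encorafenib, between 0.18 and 0.80, were smaller than those of Dusp1 in all 6 comparisons. Its level was above that of Dusp1 in every library, so fold changes do not show how many of its reads entered the Dusp1 counts. The part of such reads in the Dusp1 rise was not tested.

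Promoter sequences of 250 bases upstream of the RefSeq start (GRCm38.p6) were available for 8 of the 10 members, without Dusp4 and Spry4. Those of 3 genes are shown because the genes moved differently: Dusp1 rose with encorafenib, Dusp5 fell on day 1 and Dusp6 fell furthest of the 3 in NaJa-G. Capitals mark matches to the motifs searched, the cAMP response element TGACGTCA and the E-box CACGTG in Dusp1 (chr17:26508473-26508722, minus strand) and 2 adjacent CArG boxes in Dusp5 (chr19:53528895-53529144, plus strand). Dusp6 (chr10:99262981-99263230, plus strand) held none of them.
Dusp1: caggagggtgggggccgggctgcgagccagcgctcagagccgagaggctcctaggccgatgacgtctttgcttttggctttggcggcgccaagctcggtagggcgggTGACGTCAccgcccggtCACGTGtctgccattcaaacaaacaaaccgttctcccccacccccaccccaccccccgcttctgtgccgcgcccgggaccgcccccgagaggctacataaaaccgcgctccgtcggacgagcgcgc
Dusp5: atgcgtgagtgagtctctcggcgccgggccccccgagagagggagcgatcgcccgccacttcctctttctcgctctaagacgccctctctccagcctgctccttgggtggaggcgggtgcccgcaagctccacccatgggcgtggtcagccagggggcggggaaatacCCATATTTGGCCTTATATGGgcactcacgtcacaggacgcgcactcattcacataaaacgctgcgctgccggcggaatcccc
Dusp6: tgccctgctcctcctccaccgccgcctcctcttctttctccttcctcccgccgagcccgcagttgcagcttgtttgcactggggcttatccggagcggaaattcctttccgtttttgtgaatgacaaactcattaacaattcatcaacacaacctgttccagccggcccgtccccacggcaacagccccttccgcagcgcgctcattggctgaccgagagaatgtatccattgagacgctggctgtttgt
Both strands were searched for these motifs and for the ETS core CCGGAA and the AP-1 site TGANTCA, where N is any base. The response element began 143 bases and the E-box 126 bases before the start of Dusp1, and the CArG boxes began 82 and 72 bases before that of Dusp5. Of 13082 promoters of the same length, 2.55% held the response element, 8.10% the E-box and 1.18% a CArG box. The ETS core was in 21.2% and the AP-1 site in 4.94% of all promoters and in none of the 8 members. These are matches of letters and say nothing of binding.

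Without inhibitor, the phosphatases Dusp6 and Dusp4 led the order of levels per exon length, except in NaJa-G on day 5, where Spred2 stood between them. In CPM per kilobase, Dusp6, a cytoplasmic phosphatase selective for ERK, stood first in DMSO on day 1 in every line, with 43.7 for NaJa-D, 56.1 for NaJa-F and 57.5 for NaJa-G. Dusp4, a nuclear phosphatase of MAP kinases, was next to it on day 1, at 42.0, 47.4 and 50.7, and stood first on day 5, at 61.5, 54.2 and 65.4. These 2 neighbors did not differ beyond their spread on day 1 in NaJa-D or NaJa-G. Spry4 was last in all 12 groups, at 0.411 to 5.13 CPM per kilobase. The middle of the order changed with line, with Spred2 at 42.1 in NaJa-G and 21.3 in NaJa-D on day 1. In NaJa-G with encorafenib Dusp1 stood first on both days, at 75.3 and 47.8. The rank of Dusp1 moved with the exon length chosen, while Spry4 kept the last place with either length. In NaJa-G in DMSO on day 5, Spred2 was at 55.8 and Dusp6 at 52.8. By the length of the longest transcript Dusp6 stood above Spred2 there, at 59.1 and 57.9. The 2 Dusp6 libraries of that group were far apart, at 137 and 193 CPM, so these 2 genes did not differ beyond that spread.

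**Figure D1:**
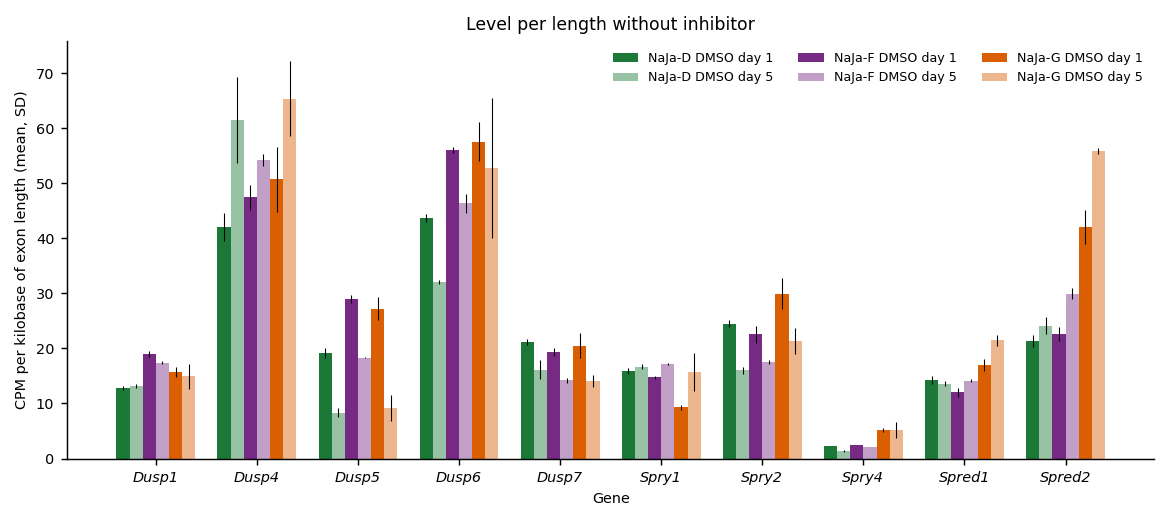
Mean level in CPM per kilobase of exon length (vertical axis) of each member in the 6 DMSO groups, with bars colored by line, paler for day 5, and error bars for the SD of 3 libraries (2 in NaJa-G DMSO day 5). Dusp4 and Dusp6 are the tallest in NaJa-D and NaJa-F, Spred2 reaches 55.8 in NaJa-G on day 5, and Spry4 is lowest throughout.

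The lines differed in these levels before any inhibitor was added. Averaged over both days in DMSO, 5 members were called higher and 0 lower in NaJa-F than in NaJa-D, where 32.6% of all genes were higher and 29.0% lower. In NaJa-G against NaJa-D, 7 were higher and 1 lower, against 33.3% and 34.1% of all genes. In NaJa-G against NaJa-F, 4 were higher and 3 lower, against 25.2% and 29.2%. The largest differences were those of Spry4 and Spred2. Spry4 was at 10.6, 11.0 and 10.8 CPM in NaJa-D, at 11.9, 11.5 and 11.4 CPM in NaJa-F and at 26.2, 23.1 and 23.6 CPM in NaJa-G on day 1. All 3 NaJa-G libraries lay above those of the other lines. Over both days NaJa-G exceeded NaJa-D by 1.53 ± 0.08 on the log2 scale (SE, adjusted p = 6.32e-16 in limma) and NaJa-F by 1.17 ± 0.07 (adjusted p = 3.37e-14 in limma). Spred2 was higher in NaJa-G by 1.10 and 0.90 against the same lines. Dusp5, a nuclear phosphatase selective for ERK, was highest in NaJa-F, by 0.87 over NaJa-D, with a log2 difference of -0.55 for NaJa-G against NaJa-F. That latter difference was -1.01 on day 5 and, with no call, -0.09 on day 1. Spry1 was the member lower in NaJa-G than in both other lines, with log2 differences of -0.44 and -0.41. On day 1 alone these were -0.78 and -0.67, and on day 5 alone -0.10 and -0.14, neither called. Scaling by library size alone shifted the median of all genes by 0.12 in both comparisons with NaJa-D and put the share of lower calls at 33.5% and 40.1% in place of 47.1% and 50.6%. On day 5 alone 5 members in place of 8 were called in NaJa-G against NaJa-D, without Dusp1, Dusp5 and Spry1.

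Encorafenib lowered most members and raised Dusp1 and Spry1. Spry2, Spry4, Spred1 and Spred2 fell and Dusp1 and Spry1 rose in all 6 comparisons of line and day. Dusp5, Dusp6 and Dusp7 fell in every line on day 1. On day 5 the falls of Dusp5 and Dusp6 passed the test in NaJa-G and in neither other line. On day 1, 8 members fell and 2 rose in NaJa-D, where 21.2% of all genes fell and 23.7% rose. In NaJa-F 9 members changed, all but Dusp4, against 29.5% of all genes. Of these members 7 fell and 2 rose, where 17.5% of all genes rose and 40.7% of the calls over all genes were on the lower side. In NaJa-G 8 fell and 2 rose, against 28.7% and 35.3%. On day 5, 4 fell and 2 rose in NaJa-D (14.7% and 18.3%), 4 fell and 3 rose in NaJa-F (8.50% and 9.70%) and 7 fell and 2 rose in NaJa-G (24.7% and 28.5%). The median log2 fold change of the members was -0.58, -0.43 and -0.86 on day 1 and -0.01, -0.23 and -0.71 on day 5 in the same order of lines, beside medians of all genes between -0.02 and 0.04. The libraries of both treatments did not overlap for 6 of 10 members in NaJa-D on day 5, beside 54.5% of all genes, and for all 10 in the other comparisons, beside 54.9%, 59.1% and 73.5% of all genes on day 1 and 55.3% and 73.1% in NaJa-F and NaJa-G on day 5. Markers of other cell types moved in the same comparisons. The mesothelial marker Msln was called higher with encorafenib in all 6, by 0.48 to 1.61 on the log2 scale. Upk3b, another mesothelial marker at a mean of 1.77 CPM, was called higher in all 6 by 1.28 to 5.12, and the fibroblast collagen Col1a1 by 0.74 to 2.68. Of the other members of these lists, Lrrn4 and Col1a2 were called higher in 2 comparisons and Pdgfrb in 1. Their lowest values were 0.16, -0.22 and -0.74. Wt1, Lum and Thy1 were absent from the count table. The summed levels of the measured mesothelial markers, Msln and Upk3b included, did not overlap between treatments in any line on either day. Nor did those of the measured fibroblast markers, Col1a1 included. Neither did the sum of the 9 epithelial markers. In NaJa-F on day 5 that sum was at 4410 to 4511 CPM in DMSO and 4981 to 5230 CPM in encorafenib. Single epithelial markers went both ways. Krt19 and Krt8 were called higher in 5 and 4 comparisons and lower in 0. Krt20 was called lower in 5 and higher in 1, and Cdx2 lower in 4 and higher in 0. Vil1, at a mean of 3.48 CPM, was called lower in 3 and higher in 2. The lowest values of Krt20, Cdx2 and Vil1 were -2.61, -2.78 and -2.10. Over both days the mesothelial sum was 1225 to 1514 CPM in DMSO and 2214 to 3520 CPM in encorafenib in NaJa-D, 660.1 to 984.7 and 1002 to 1176 CPM in NaJa-F, and 496.9 to 723.8 and 1328 to 1744 CPM in NaJa-G. The fibroblast sum was 1.16 to 1.62 and 2.38 to 3.57 CPM in NaJa-D, 1.69 to 2.28 and 2.83 to 4.46 CPM in NaJa-F, and 13.8 to 70.3 and 83.9 to 106.5 CPM in NaJa-G. Their part in the members' changes was not tested. In NaJa-D on day 1, scaling by library size alone put 36.4% of the calls over all genes on the lower side in place of 47.2%.

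**Figure D2:**
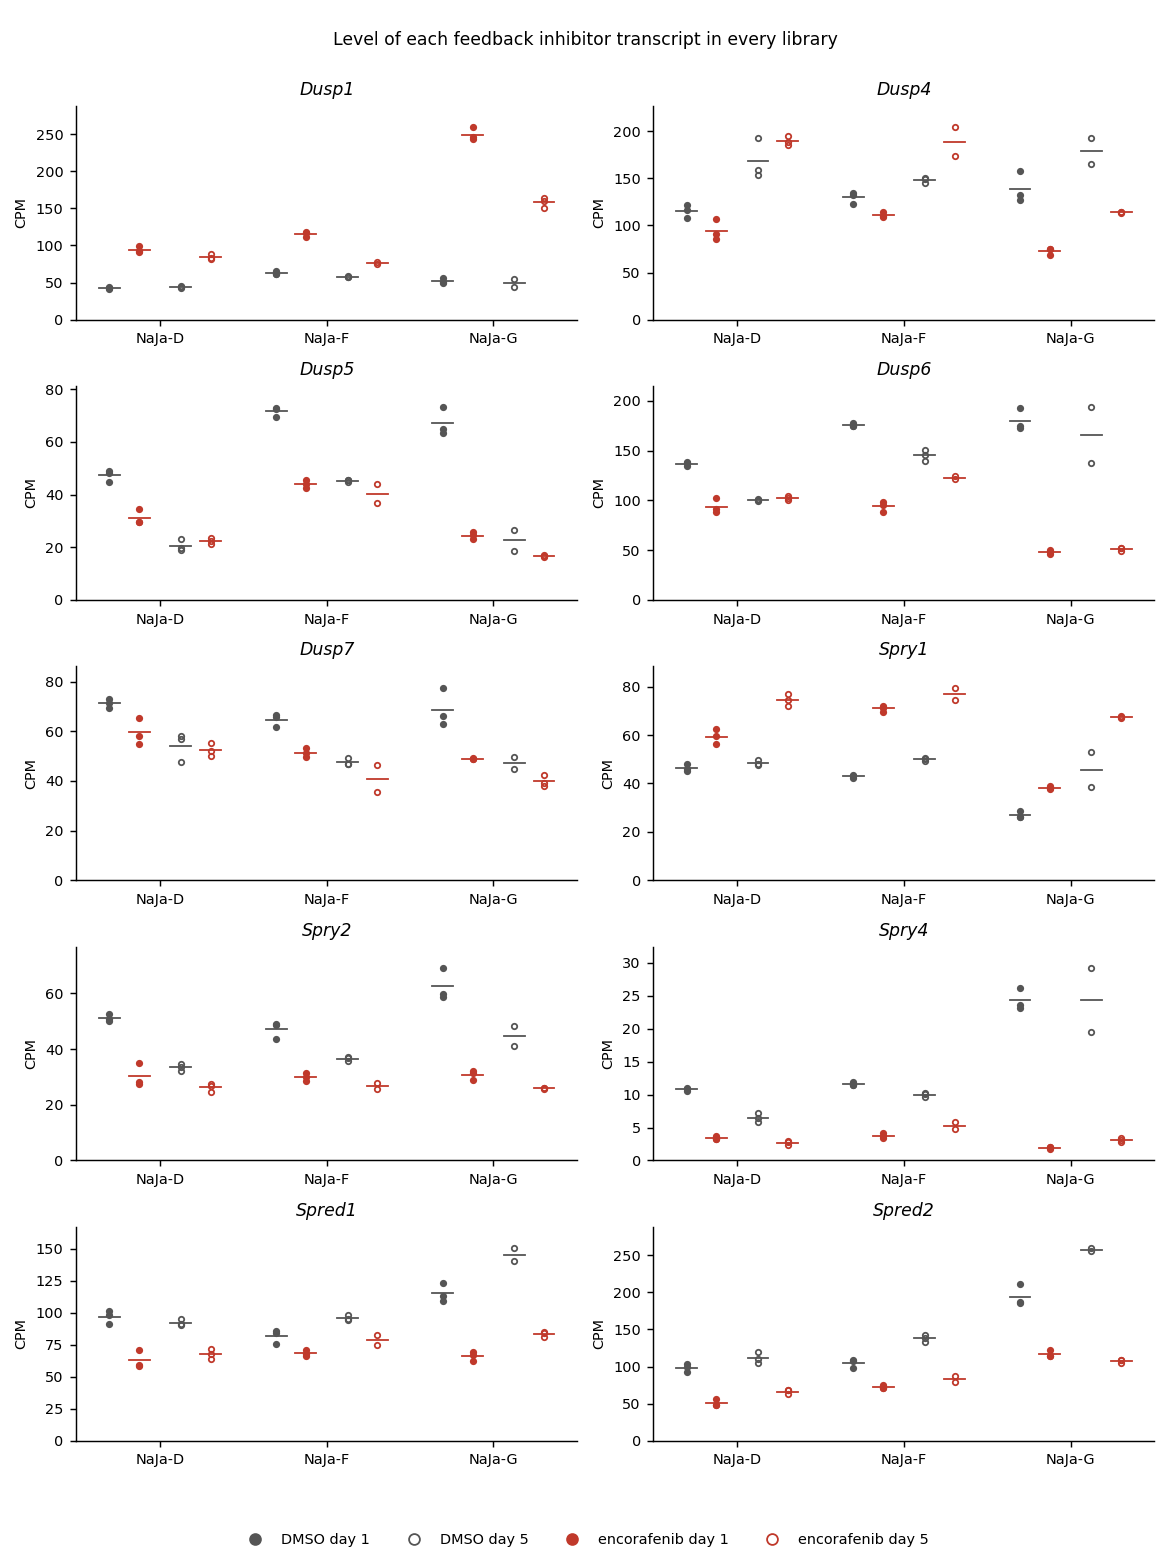
CPM of each member (vertical axis, from 0) in every library, by line, with gray for DMSO, red for encorafenib, filled points for day 1, open points for day 5 and lines for group means. Dusp1 and Spry1 sit higher with encorafenib in every line, Spry4 sits lower in every line, and the Dusp6 libraries of NaJa-D overlap on day 5.

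Dusp1 encodes a nuclear phosphatase that also acts on JNK and p38 and is induced by stress. In NaJa-D it was at 41.2, 43.5 and 42.1 CPM in DMSO and at 91.8, 91.3 and 99.0 CPM in encorafenib on day 1. In NaJa-F it was at 61.6, 61.7 and 65.0 CPM and at 118, 111 and 116 CPM. In NaJa-G it was at 55.4, 51.2 and 49.7 CPM and at 259, 243 and 246 CPM. Every encorafenib library lay above every DMSO library of its line. The log2 fold change was 1.15 ± 0.06 in NaJa-D, 0.88 ± 0.06 for NaJa-F and 2.26 ± 0.06 for NaJa-G (SE, adjusted p = 4.71e-15, 8.66e-13 and 9.43e-23 in limma). By day 5 it was 0.95, 0.40 and 1.69. At that time NaJa-F held 57.8, 56.8 and 58.4 CPM in DMSO and 75.5 and 77.1 CPM in encorafenib, which did not overlap.

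Dusp6 fell in every line on day 1, by unequal amounts. In NaJa-G on day 1 it was at 193, 174 and 173 CPM in DMSO and at 49.8, 45.9 and 48.6 CPM in encorafenib. In NaJa-D it was at 138, 134 and 139 CPM and at 88.2, 91.1 and 102 CPM, and in NaJa-F at 178, 174 and 175 CPM and at 94.95, 88.7 and 98.4 CPM. The groups did not overlap in any line. The log2 fold change was -1.90 ± 0.08 in NaJa-G, -0.90 ± 0.07 in NaJa-F and -0.55 ± 0.07 in NaJa-D (SE, adjusted p = 8.80e-19, 7.08e-11 and 3.47e-07 in limma). On day 5 NaJa-D held 101, 101 and 99.4 CPM in DMSO and 103, 100 and 104 CPM in encorafenib, and these overlapped. Its log2 fold change then was 0.03, with a 95% interval from -0.12 to 0.18, so a fall as large as that of day 1 lay outside the interval. NaJa-F held 151, 140 and 145 CPM in DMSO and 122 and 124 CPM in encorafenib, a log2 fold change of -0.24 (95% interval -0.41 to -0.07, adjusted p = 0.0294 in limma, past 0.01 when only the groups compared were fitted). NaJa-G held 137 and 193 CPM in DMSO and 51.8, 51.7 and 49.2 CPM in encorafenib, a log2 fold change of -1.68. The NaJa-G DMSO libraries of day 5 were far apart, but both lay above all encorafenib libraries.

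Dusp5 and Dusp7 are selective for ERK in the nucleus and the cytoplasm, and Dusp4 acts in the nucleus on ERK and other MAP kinases. On day 1 Dusp5 was at 49.1, 44.9 and 48.2 CPM in DMSO and 29.6, 29.4 and 34.6 CPM in encorafenib in NaJa-D. In NaJa-G it was at 73.1, 63.4 and 65.1 CPM and at 25.7, 23.0 and 24.6 CPM. Neither pair overlapped. The log2 fold changes on day 1 were -0.61, -0.70 and -1.46 in the 3 lines (NaJa-D, NaJa-F, NaJa-G in turn) (adjusted p = 1.92e-06, 7.63e-08 and 1.33e-14 in limma). On day 5 they were 0.12 (95% interval -0.09 to 0.32), -0.17 (-0.37 to 0.03) and -0.42 (-0.65 to -0.19), of which the last passed the test (adjusted p = 0.00159 in limma), a call lost when only the groups compared were fitted (-0.43). Its difference from the response of NaJa-F was not called. That last value ranged from -0.68 to -0.15 when each of its libraries was left out, the extremes leaving 1 DMSO library and no call. Dusp7 fell on day 1 by small amounts, with log2 fold changes of -0.26, -0.33 and -0.49, and was not called on day 5, at -0.05, -0.23 and -0.25. Its call in NaJa-D was lost without any 1 of DMSO replicates 1 and 2 or encorafenib replicates 1 and 2, at -0.36 to -0.21 over all leave-one-out fits, and its call in NaJa-F without encorafenib replicate 1. The call in NaJa-D was also lost with scaling by library size alone (-0.18), when only the groups compared were fitted (-0.29) and with the replicate number as a block, and the value in NaJa-G on day 5 was called with scaling by library size alone (-0.30).

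Dusp4 was called lower in some comparisons and higher in another. In NaJa-G on day 1 it was at 157, 132 and 127 CPM in DMSO and at 74.7, 74.9 and 68.2 CPM in encorafenib. In NaJa-F on day 5 it was at 151, 149 and 145 CPM in DMSO and at 173 and 204 CPM in encorafenib. Neither pair overlapped, and they moved in opposite directions. Log2 fold changes were -0.93 and -0.64 in NaJa-G on days 1 and 5, -0.29 and 0.18 in NaJa-D, and -0.23 and 0.34 in NaJa-F. The values of 0.18 and -0.23 did not pass the test (adjusted p = 0.0892 and 0.0309 in limma). The former was called with library quality weights (0.21), and the latter with those weights, with scaling by library size alone and when only the groups compared were fitted (-0.26 to -0.23 over all settings). The rise in NaJa-F on day 5 lost its call without any 1 of the 3 DMSO libraries, at 0.21 to 0.45, under another scaling, when only the groups compared were fitted and with the replicate number as a block (0.33). The fall in NaJa-D on day 1 lost its call without any 1 of DMSO replicates 1 and 2 or encorafenib replicates 1 and 2, at -0.41 to -0.22, with scaling by library size alone (-0.21) and when only the groups compared were fitted.

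Spry4 fell furthest of all members in every comparison. On day 1 it was at 10.6, 11.0 and 10.8 CPM in DMSO and at 3.21, 3.25 and 3.68 CPM in encorafenib in NaJa-D. In NaJa-F it was at 11.9, 11.5 and 11.4 CPM and at 4.15, 3.36 and 3.70 CPM. In NaJa-G it was at 26.2, 23.1 and 23.6 CPM and at 2.05, 1.77 and 2.04 CPM. NaJa-G thus held the highest level without inhibitor and the lowest with it, and no encorafenib library reached a DMSO library of its line. The log2 fold changes were -1.68 ± 0.16, -1.64 ± 0.14 and -3.64 ± 0.17 (SE, adjusted p = 4.90e-10, 1.19e-10 and 2.28e-17 in limma), a 12.5-fold fall in NaJa-G. On day 5 they were -1.26, -0.91 and -2.93. NaJa-G then held 19.5 and 29.2 CPM in DMSO and 3.48, 3.18 and 2.86 CPM in encorafenib, with no overlap.

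The other Sprouty genes moved in opposite directions. Spry2, an inhibitor of receptor tyrosine kinase signaling, was at 69.1, 59.8 and 58.7 CPM in DMSO and 32.0, 28.9 and 31.3 CPM in encorafenib in NaJa-G on day 1. Its log2 fold changes on day 1 were -0.77, -0.65 and -1.03 in the 3 lines (NaJa-D, NaJa-F, NaJa-G in turn), and on day 5 -0.35, -0.45 and -0.78. Spry1, its close relative, was at 43.2, 43.4 and 42.1 CPM in DMSO and at 72.1, 71.3 and 69.6 CPM in encorafenib in NaJa-F on day 1. Neither gene overlapped between treatments in any line on either day. The log2 fold changes of Spry1 were 0.36, 0.73 and 0.51 on day 1 and 0.62, 0.63 and 0.57 on day 5, with adjusted p between 3.86e-10 and 5.38e-05 in limma.

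Both Spred genes fell in each line on each day. Spred2 was at 211, 185 and 187 CPM in DMSO and 122, 114 and 114 CPM in encorafenib in NaJa-G on day 1. On day 5 it was at 256 and 259 CPM and at 108, 105 and 109 CPM. In NaJa-D on day 1 it was at 103, 99.3 and 92.9 CPM and at 48.6, 48.8 and 56.3 CPM. The treatments were well separated in each pair. The log2 fold changes of Spred2 were -0.94, -0.53 and -0.73 on day 1 and -0.75, -0.74 and -1.26 on day 5 in the 3 lines (NaJa-D, NaJa-F, NaJa-G in turn). Those of Spred1 were -0.63, -0.26 and -0.80 on day 1 and -0.45, -0.29 and -0.80 on day 5. The call of Spred1 in NaJa-F on day 1 was lost without any 1 of replicates 1 and 2 of either treatment, at -0.31 to -0.22.

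**Figure D3:**
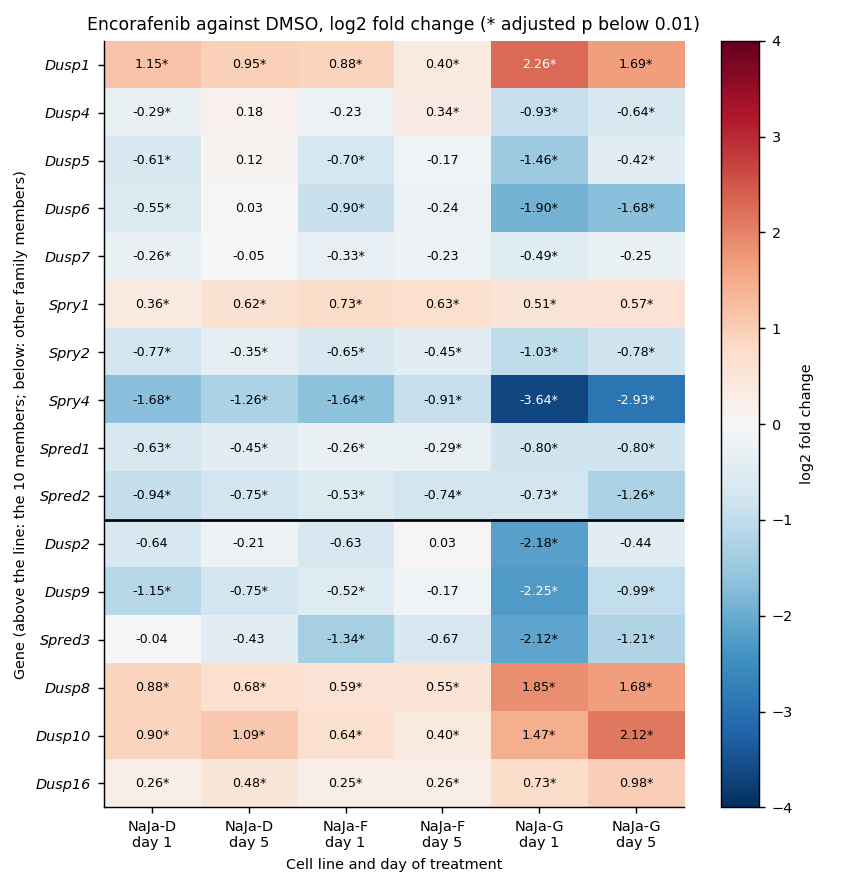
Log2 fold change of encorafenib against DMSO (color and printed value, blue lower, red higher) for the 10 members and, below the line, 6 other family members, in 6 comparisons of line and day, with an asterisk where the adjusted p was below 0.01. Spry4 has the darkest blue cells, at -3.64 and -2.93 in NaJa-G, and Dusp1, Spry1, Dusp8, Dusp10 and Dusp16 are red in all 6 columns.

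The response was tested for a difference between lines, in comparisons that share libraries with each other. NaJa-G against NaJa-D differed on day 1 for 5 members, where 36.4% of all genes differed. NaJa-G against NaJa-F differed for 7 (33.5%), and NaJa-F against NaJa-D for 3 (8.79%). The difference was -1.96 ± 0.23 for Spry4 (SE, adjusted p = 6.45e-08 in limma), -1.36 ± 0.11 for Dusp6 (adjusted p = 3.27e-11 in limma) and 1.10 ± 0.08 for Dusp1 (adjusted p = 2.57e-11 in limma) in NaJa-G against NaJa-D. Against NaJa-F the differences of these genes were -2.00, -1.002 and 1.38. On day 5 the response of NaJa-G differed from that of NaJa-D for 8 members (21.9% of all genes) and from that of NaJa-F for 6 (24.2%), and NaJa-F differed from NaJa-D for 1, Dusp1 at -0.54 (8.85%). Dusp6 then differed by -1.70 and -1.44 and Spry4 by -1.66 and -2.02 in NaJa-G against NaJa-D and NaJa-F. With scaling by library size alone, the lower side held 65.3% in place of 49.0% of the calls over all genes in NaJa-F against NaJa-D and 59.8% in place of 44.5% in NaJa-G against NaJa-D on day 1, where the all-gene median moved by -0.13, and 48.6% in place of 35.7% in the latter on day 5. Without NaJa-D DMSO day 5 replicate 1 or NaJa-D encorafenib day 5 replicate 2, 5 in place of 8 members differed on day 5 in NaJa-G against NaJa-D. In NaJa-F against NaJa-D on day 1, 1 member in place of 3 remained called without NaJa-D encorafenib day 1 replicate 1 or 2, NaJa-F DMSO day 1 replicate 3, or any 1 NaJa-F encorafenib day 1 library. When only the groups compared were fitted, the calls of Dusp5 and Spry2 in NaJa-G against NaJa-D on day 5 were lost, as were those of Spred1 and Spred2 in NaJa-F against NaJa-D on day 1. In the former comparison Spry2 and Spred1 also lost their calls under another scaling, and in the latter Spry1 and Spred1 with scaling by library size alone.

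The response of several phosphatases differed between days. In NaJa-D the log2 fold change was higher on day 5 for Dusp4 by 0.47 ± 0.12, for Dusp5 by 0.73 ± 0.13 and for Dusp6 by 0.58 ± 0.10 (SE, adjusted p = 0.00864, 0.000454 and 0.000311 in limma), 3 members where 7.29% of all genes differed in either direction. In NaJa-F these genes differed by 0.57, 0.53 and 0.66 and Dusp1 by -0.47 (5.88% of all genes). In NaJa-G Dusp5 differed by 1.04, Spry4 by 0.72, Dusp1 by -0.57 and Spred2 by -0.53 (31.7%). The level of Dusp5 in encorafenib did not rise between days in NaJa-D and NaJa-G, with log2 differences of -0.47 and -0.54. In DMSO it fell further, at -1.20 and -1.58. Dusp6 was not called in NaJa-G, where it remained far below DMSO on both days, and its value of 0.23 went to -0.02 without NaJa-G DMSO day 5 replicate 1, which left 1 library in that group. The Dusp4 call in NaJa-D was lost in 10 of 12 leave-one-out fits, all but those without encorafenib day 1 replicate 3 or DMSO day 5 replicate 1, at 0.40 to 0.58. The Dusp5 call in NaJa-F was lost in 7 of 9, without encorafenib day 1 replicate 1 or 2, any DMSO day 5 library, or DMSO day 1 replicate 2 or 3, at 0.40 to 0.65. The Spry4 call in NaJa-G was lost in 7 of 9, without DMSO day 1 replicate 1 or 3, any encorafenib day 1 library, or encorafenib day 5 replicate 1 or 2, at 0.44 to 1.02. The Dusp4 call in NaJa-D and the Spry4 call in NaJa-G were also lost under another scaling and when only the groups compared were fitted, the former with edgeR and the latter with the replicate block too. With library quality weights 8 members in place of 3 differed in NaJa-D.

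**Figure D4:**
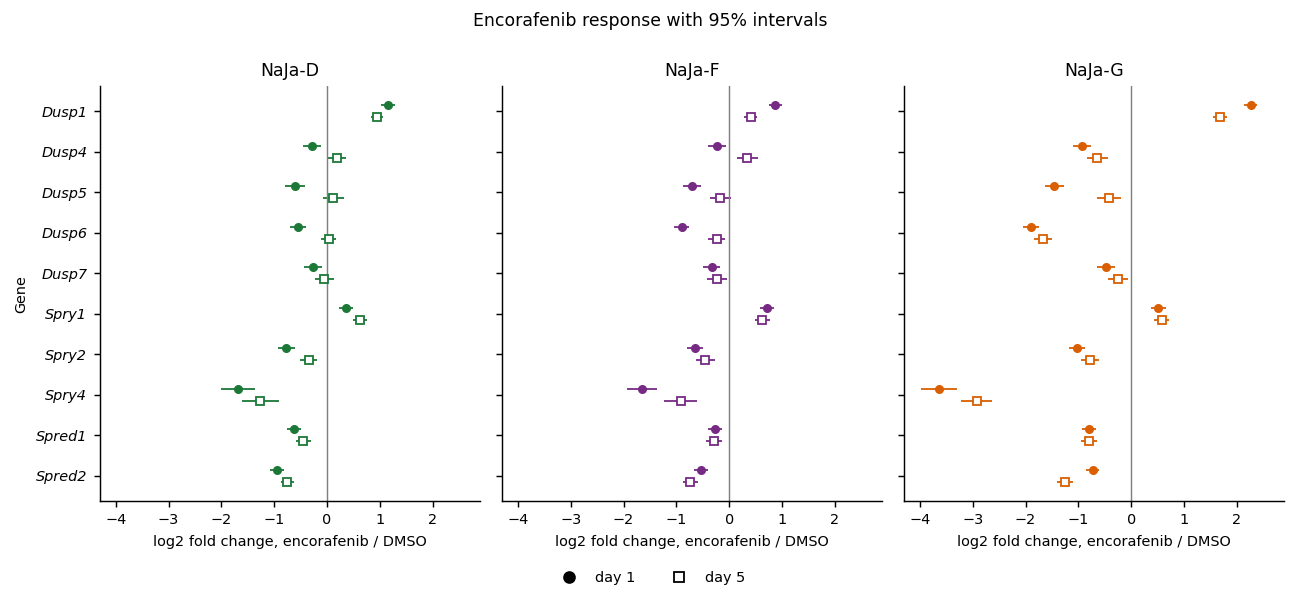
Log2 fold change of encorafenib against DMSO (horizontal axis) of each member in the 3 lines, with filled circles for day 1, open squares for day 5 and bars for 95% intervals. In NaJa-D the Dusp6 point moves from -0.55 to 0.03 between days, whereas in NaJa-G it moves from -1.90 to -1.68.

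Levels also changed with time in culture without inhibitor, in comparisons that share their DMSO libraries with the responses above. From day 1 to day 5 in DMSO, 5 members fell and 1 rose in NaJa-D, where 15.3% and 13.7% of all genes did. In NaJa-F 4 fell and 2 rose, against 7.01% and 9.73%, and in NaJa-G 3 fell and 4 rose, against 16.8% and 17.2%. Dusp5 fell in every line, from 49.1, 44.9 and 48.2 CPM to 19.7, 19.0 and 23.1 CPM in NaJa-D. In NaJa-G it fell from 73.1, 63.4 and 65.1 CPM to 18.5 and 26.7 CPM. Neither pair of groups overlapped. The log2 differences were -1.20 ± 0.10, -0.66 ± 0.08 and -1.58 ± 0.10 in the 3 lines (NaJa-D, NaJa-F, NaJa-G in turn) (SE, adjusted p = 1.31e-10, 1.09e-06 and 8.13e-13 in limma). Dusp7 fell by 0.40, 0.44 and 0.53 and Spry2 fell by 0.61, 0.36 and 0.49 on the log2 scale. Dusp6 fell in NaJa-D, at -0.45, and in NaJa-F, at -0.28, the latter called in 1 of 6 leave-one-out fits, that without DMSO day 5 replicate 1. Spred2 rose in NaJa-F and NaJa-G by 0.40 and 0.41, and Dusp4 rose in NaJa-D and NaJa-G by 0.54 and 0.37, the latter lost without NaJa-G DMSO day 1 replicate 2 or 3 (0.26 to 0.48). When only the groups compared were fitted, 3 members in place of 7 were called in NaJa-G, without Dusp4, Dusp7, Spry2 and Spred1. With scaling by library size alone the calls of Dusp7 in NaJa-D and of Dusp6 in NaJa-F were lost. Scaling by library size alone shifted the median of all genes by 0.18 in NaJa-D and put 18.3%, 21.4% and 37.6% of calls on the lower side in place of 52.6%, 41.9% and 49.4%.

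With encorafenib, 1 member fell and 3 rose from day 1 to day 5 in NaJa-D, where 14.2% and 12.5% of all genes did. In NaJa-F 2 fell and 2 rose, against 12.3% and 10.2%, and in NaJa-G 3 fell and 4 rose, against 20.4% and 20.6%. Dusp4 rose in every line. It went from 91.0, 86.1 and 107 CPM to 195, 189 and 185 CPM in NaJa-D, which did not overlap. Its log2 differences were 1.01 ± 0.09, 0.76 ± 0.10 and 0.65 ± 0.08 (SE, adjusted p = 4.01e-10, 7.96e-07 and 2.96e-07 in limma). Dusp1 fell by 0.59 in NaJa-F and by 0.66 in NaJa-G. Dusp5 went from a mean of 31.2 to 22.3 CPM in NaJa-D and from 24.4 to 16.8 CPM in NaJa-G. These were log2 differences of -0.47 and -0.54, both called, while Dusp5 was not called in NaJa-F. Spry1 rose by 0.33 in NaJa-D and by 0.82 in NaJa-G. With scaling by library size alone the all-gene median moved by 0.11 for NaJa-D and 0.10 for NaJa-F, which put 25.0%, 30.3% and 38.2% of calls on the lower side in place of 53.3%, 54.9% and 49.8%.

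Other members of the same families did not move as 1 group. Of 7 listed, 6 were measured, and 3 rose in all 6 comparisons: Dusp8, Dusp10 and Dusp16, phosphatases that prefer JNK and p38. Their median log2 fold changes over the 6 comparisons were 0.78, 0.99 and 0.37. In NaJa-G on day 5 Dusp10 rose by 2.12, from a mean of 9.88 ± 1.12 CPM (SD, n = 2) to 43.0 ± 1.13 CPM (SD, n = 3). Spred3 fell in 3 comparisons, with a median of -0.94. Dusp9, an ERK-selective relative of Dusp6 named here after its values were seen, fell in 5, with log2 fold changes from -2.25 to -0.17. It went from a mean of 77.0 ± 3.43 to 35.2 ± 5.58 CPM in NaJa-D and from 22.3 ± 3.25 to 4.68 ± 0.134 CPM in NaJa-G on day 1 (SD, n = 3). Dusp2 averaged 0.616 CPM and was called in 1 comparison. Of 9 measured atypical DUSP phosphatases, which lack the MAP kinase-binding domain, 3, 5, 3, 1, 5 and 6 rose and 1 fell, once, on days 1 and 5 of NaJa-D, then NaJa-F, then NaJa-G, where 23.7%, 18.3%, 17.5%, 9.70%, 35.3% and 28.5% of all genes rose. Dusp3 rose in all 6, with a median of 0.63, and Dusp14 in 5, with a median of 0.49.

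**Figure D5:**
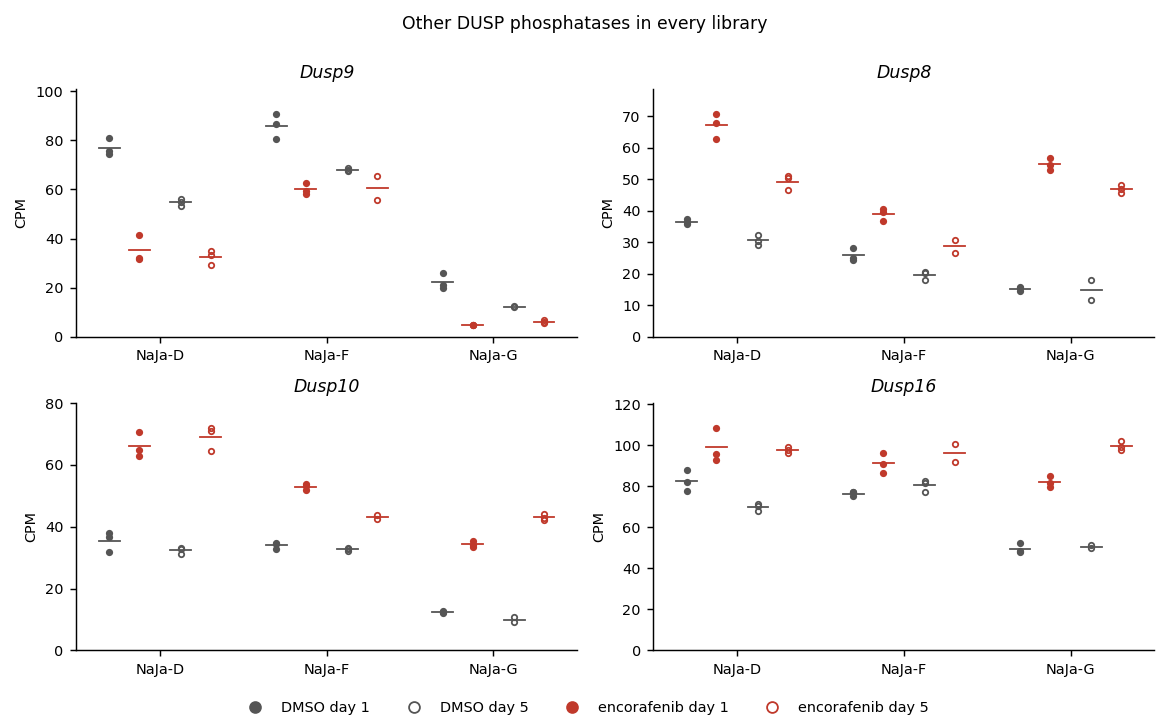
CPM of 4 other DUSP phosphatases (vertical axis, from 0) in every library, by line, with gray for DMSO, red for encorafenib, filled points for day 1, open points for day 5 and lines for group means. Dusp8, Dusp10 and Dusp16 sit higher and Dusp9 lower with encorafenib in most groups, and Dusp9 is lowest in NaJa-G.

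Other transcripts known to follow ERK activity were listed as well. Of 15 listed targets, 10, 9 and 11 fell on day 1 and 8, 7 and 10 on day 5 in the 3 lines (NaJa-D, NaJa-F, NaJa-G in turn), while between 0 and 2 rose. Of all genes 21.2% and 28.7% fell on day 1 in NaJa-D and NaJa-G, and 14.7%, 8.50% and 24.7% fell on day 5. In NaJa-F on day 1, 29.5% were called in either direction, with 40.7% of these calls on the lower side. The list's median log2 fold change lay between -1.27, in NaJa-G on day 1, and -0.22, in NaJa-F on day 5. Etv4 and Etv5, ETS transcription factors induced by ERK, fell in all 6 comparisons, with medians of -1.20 and -1.78. Fosl1, an AP-1 subunit, and the chromatin proteins Hmga1 and Hmga2 also fell in all 6, with medians of -1.05, -1.42 and -1.94. Etv1 had the lowest median, -2.53, at a mean of 0.531 CPM. In NaJa-G Etv4 fell from 96.8 ± 2.74 to 7.79 ± 0.231 CPM on day 1 (SD, n = 3). In NaJa-D Etv5 was at 28.1 ± 1.42 and 7.48 ± 1.13 CPM on day 1 and at 25.6 ± 0.610 and 8.27 ± 0.407 CPM on day 5 (SD, n = 3), a time at which the log2 fold change of Dusp6 in this line was 0.03. In that line on day 5, 8 of the 15 targets fell and 1 rose. Egr1, named here after its values were seen, had a log2 fold change of 1.63 there.

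Of 15 other negative regulators of receptor and RAS signaling, 5, 6 and 6 fell and 4, 1 and 4 rose on day 1 and 6, 1 and 4 fell and 2, 1 and 4 rose on day 5 in the 3 lines (NaJa-D, NaJa-F, NaJa-G in turn). In NaJa-D on day 1 the 5 and 4 of 15 stand beside 21.2% and 23.7% of all genes lower and higher, and in NaJa-G the 6 and 4 beside 28.7% and 35.3%. In NaJa-F the 7 called stand beside 29.5%. On day 5 the shares of all genes were 14.7%, 8.50% and 24.7% lower and 18.3%, 9.70% and 28.5% higher. Errfi1, an inhibitor of the EGF receptor, fell in 4 comparisons, with a median of -0.67 and the largest value, -1.44, in NaJa-G on day 1. Lrig1, which promotes degradation of ERBB receptors, fell in 5, with a median of -0.50.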

How the data were processed

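The deposited table holds raw counts of reads per gene, which the authors made with Trimmomatic 0.39 and STAR 2.5.2b on GRCm38. The counter, annotation release and use of strand are not given in the sources used here. All 14107 genes had a summed count above 2, so this filter removed none. The smallest summed count was 360, and all 14107 genes exceeded 1 CPM in at least 2 libraries. The counts as deposited therefore held expressed genes only, and the shares of all genes refer to these. Whether genes with lower values were removed beforehand is not given in the sources used here. Counts were scaled by TMM (edgeR 4.0.16) and fitted with limma-voom (limma 3.58.1, R 4.3.3) on 12 group means. The threshold was a two-sided p below 0.01 after Benjamini-Hochberg adjustment over all genes, in 24 comparisons. On data simulated for encorafenib against DMSO in NaJa-D on day 1 (14107 genes), 79% of 100 genes changed 2-fold and 71% of 100 changed 1.5-fold were recovered. Far fewer genes were changed there than were called in the data, and they were drawn at any level. These rates therefore need not hold for the members. The variance between 2 libraries of a group was 3.30 to 85.0 times that of counting, so none was a duplicate. edgeR and DESeq2 1.42.0 were alternatives. Symbols came from GENCODE M21 for 14064 genes.

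The members and gene lists were chosen with earlier results of these data known. All 10 members are named. From each other list, the cell type markers apart, the genes called in 1 direction in all 6 encorafenib comparisons and the 2 with the largest absolute median are named. No column went unused.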

Additional observations from a re-analysis of the deposited data

Results flagged for a closer look

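Each value here is the difference between 2 log2 fold changes of encorafenib against DMSO, between 2 lines on 1 day or between 2 days in 1 line, that passed an adjusted p below 0.01 over all genes in limma. The comparisons share libraries, and 41 of them passed for the 10 members. For NaJa-F against NaJa-D on day 1, the difference was 0.37 for Spry1, 0.37 for Spred1 and 0.41 for Spred2. For NaJa-G against NaJa-D on day 1, the difference was 1.10 for Dusp1, -0.64 for Dusp4, -0.85 for Dusp5, -1.36 for Dusp6 and -1.96 for Spry4. For NaJa-G against NaJa-F on day 1, the difference was 1.38 for Dusp1, -0.70 for Dusp4, -0.76 for Dusp5, -1.002 for Dusp6, -0.38 for Spry2, -2.00 for Spry4 and -0.54 for Spred1. For NaJa-F against NaJa-D on day 5, the difference was -0.54 for Dusp1. For NaJa-G against NaJa-D on day 5, the difference was 0.74 for Dusp1, -0.82 for Dusp4, -0.54 for Dusp5, -1.70 for Dusp6, -0.44 for Spry2, -1.66 for Spry4, -0.35 for Spred1 and -0.51 for Spred2. For NaJa-G against NaJa-F on day 5, the difference was 1.28 for Dusp1, -0.99 for Dusp4, -1.44 for Dusp6, -2.02 for Spry4, -0.51 for Spred1 and -0.52 for Spred2. Within NaJa-D, day 5 against day 1, the difference was 0.47 for Dusp4, 0.73 for Dusp5 and 0.58 for Dusp6. Within NaJa-F, day 5 against day 1, the difference was -0.47 for Dusp1, 0.57 for Dusp4, 0.53 for Dusp5 and 0.66 for Dusp6. Within NaJa-G, day 5 against day 1, the difference was -0.57 for Dusp1, 1.04 for Dusp5, 0.72 for Spry4 and -0.53 for Spred2. The call of Spry2 between NaJa-G and NaJa-F on day 1 was lost without NaJa-F encorafenib replicate 1 or 3, NaJa-F DMSO replicate 3, NaJa-G DMSO replicate 1 or NaJa-G encorafenib replicate 2, at -0.42 to -0.31 over all leave-one-out fits. In NaJa-G on day 5 these values rest on 2 DMSO libraries that were far apart, at 137 and 193 CPM for Dusp6.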

How the results depend on the processing

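Of the members' log2 values and ranks under other settings of the processing, 1453 kept their direction and side of the threshold, 42 lost the call, 13 gained it, 1 reversed and 7 ranks moved with the exon length chosen. With each library left out in turn, 1193 were counted as unchanged, 102 lost the call, 2 gained it and 1 reversed. Another 2, of Dusp1 in NaJa-F, moved by more than the spread between libraries. The 1193 kept direction and side or, where 1 library remained in a group and no call was made, moved by no more than that spread. The reversals among values with a test were of Dusp7 in NaJa-D on day 5, not called, which went to 0.017 with library quality weights and ranged from -0.13 to 0.0018 with 1 library left out, the highest without DMSO day 5 replicate 1. The cause was not tested. Where a group of 2 kept 1 library, the value was given without a call, and 1 such value, of Dusp6 between days in NaJa-G, changed sign from 0.23 to -0.022. It moved by no more than the spread between libraries and is counted among the 1193. Requiring an absolute log2 difference of at least 1 as well left, by construction, fewer calls: 1, 1 and 4 lower and 1, 0 and 1 higher with encorafenib on day 1 in the 3 lines (NaJa-D, NaJa-F, NaJa-G in turn), 1, 0 and 3 lower and 0, 0 and 1 higher on day 5, 1, 0 and 1 over time in DMSO, 1, 0 and 0 over time in encorafenib, 0, 2 and 1 between lines in DMSO (NaJa-F and NaJa-G against NaJa-D, NaJa-G against NaJa-F), 0, 3 and 3 between the lines' responses on day 1, 0, 2 and 3 on day 5, and 0, 0 and 1 between days. An adjusted p below 0.05 gave 7 in place of 4 over time in encorafenib in NaJa-F and 5 in place of 3 for the response of NaJa-F against NaJa-D on day 1. Library quality weights gave 5 for the latter and 8 in place of 3 between days in NaJa-D. Fitting only the groups compared gave 1 for the response of NaJa-F against NaJa-D on day 1 and 3 in place of 7 over time in DMSO in NaJa-G. Scaling by library size alone gave 8 in place of 5 for the response of NaJa-G against NaJa-D on day 1, and DMSO day 5 alone gave 5 in place of 8 between these lines. The causes were not tested. Leaving out 1 library gave 1 to 3 members for the response of NaJa-F against NaJa-D on day 1 and 5 to 8 for that of NaJa-G against NaJa-D on day 5. Deviations of libraries with the same replicate number correlated at -0.157 to 0.215, and in no line on either day did every library correlate best with its own number, so the numbers were not taken as a pairing. With the replicate number as a block, Dusp7 in NaJa-D on day 1 (-0.26), Dusp4 in NaJa-F on day 5 (0.33), Dusp7 over time in encorafenib in NaJa-F (-0.34) and Spry4 between days in NaJa-G (0.72) lost their calls, and the block changed no other call. Groups of 2 or 3 libraries limit what small changes could be detected.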

Other observations

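Of 17 core pathway genes, the kinases and adaptors of the cascade, 2, 5 and 7 rose and 1, 0 and 1 fell on day 1 and 3, 2 and 6 rose and 0, 2 and 0 fell on day 5 in the 3 lines (NaJa-D, NaJa-F, NaJa-G in turn), and the list's median log2 fold change lay between -0.03 and 0.19. Of all genes 23.7%, 17.5% and 35.3% rose on day 1 and 18.3%, 9.70% and 28.5% on day 5. Egfr, encoding the EGF receptor, rose in 4 of 6 comparisons, with a median of 0.41 and a highest value of 0.88 in NaJa-G on day 5. Ksr1, a scaffold of the cascade, fell in 3 and rose in 1, with a median of -0.38 at a mean of 4.85 CPM. Of 6 measured JNK and p38 kinases, 5, 0 and 1 rose on day 1 and 1, 1 and 3 on day 5, and 0 fell. Mapk12 and Mapk11, which encode p38 kinases, had medians of 0.50 and 0.36. The shares of all genes that rose, given above, stand beside these counts too.

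Likeness of pattern was described by Pearson's r over 12 group means of log2 CPM after subtracting each line's mean, among 10256 genes. The points share lines and control libraries, and no p is given. Dusp6 and Spry4 had r = 0.95, Dusp5 and Dusp7 0.94, Spred1 and Spred2 0.93, and Dusp1 and Spry4 -0.97. The genes most like Dusp1 were Cryab, Pctp and Card10, each at 0.99. Those most like Spry4 were Mboat7, Slc19a1 and Mfsd2a, each at 0.99, and those most like Dusp6 were Plk3, Fam110c and Ercc2, at 0.97. For Dusp5 they were Sart1, Srrd and Ddx54, at 0.99, 0.97 and 0.97, for Dusp7 Ddx54, Ccdc51 and Klhdc4, at 0.98, and for Dusp4 Caml, Whamm and Zbtb2, at 0.96, 0.94 and 0.94. Spry1 was most like Uevld, Scarb2 and Eda, at 0.98, 0.95 and 0.94, and Spry2 most like Ube2o, Sde2 and Odc1, at 0.99, 0.99 and 0.98. Spred1 was most like Ankrd28, Il22ra1 and Pom121, at 0.98, and Spred2 most like Kat7, Prss12 and Mpzl1, at 0.98, 0.98 and 0.97.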
